A study of Rattus norvegicus with 18 samples.

Results

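Mitosis and cell division genes were followed in the colonic mucosa of rats given a carcinogen, region by region. The list named 47 genes, taken as every probe set (a group of short probes on the array that together read 1 transcript) that the array annotation assigns to exactly 1 of these symbols. Of the 47, 40 had such a probe set, 56 probe sets in all, and 38 genes with 50 probe sets were above the filter on low signal and were tested among 11407 genes. Nek2, Ndc80, Ncapg, Kif4a, Tpx2, Ckap2 and Anln had no probe set of their own symbol alone. Cenpe, a kinesin of the kinetochore, averaged 4.89 ± 0.40 in proximal and 5.00 ± 0.43 in distal colon (log2 signal with SD over 9 arrays each), and Cenpa, the histone of the centromere, 5.60 ± 0.33 in proximal and 5.43 ± 0.45 in distal colon. Both had a mean below the filter level of 5.54 and were not tested.

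The 9 proximal and 9 distal mucosal samples, 1 Affymetrix rat array each, came from 9 male Sprague Dawley rats (an outbred strain), which gave both regions. All rats ate a modified AIN-93G diet (a purified rodent diet) for 10 days, received 15 mg per kg of azoxymethane, an alkylating colon carcinogen, by subcutaneous injection, and were killed after 6 h. In each region 4 cm of mucosa was scraped, and each array took 4.5 µg of RNA. No rat without azoxymethane was among the samples used, so the regions were compared only as they were after the carcinogen, and the allocation groups that the series describes are not given for single rats in the labels. Signals are given as log2 of the deposited intensity plus 16, made alike in distribution over all arrays, and every difference is proximal minus distal colon on that scale. A gene is called higher where the adjusted p of limma, a linear model fitted over all probe sets, is below 0.05. That model treats the proximal and distal arrays of a rat as independent samples. Calls, SE and intervals therefore ignore the pairing by rat, except where rat as a block is named. A gene that did not pass may thus pass when each rat is compared with itself, and such cases are given. The libraries are scrapings of mixed cells, in which fewer cells of a type and less RNA per cell cannot be told apart.

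Cells that enter mitosis raise cyclin A and cyclin B, which activate the kinase Cdk1. Aurora and Polo kinases then build the spindle and attach chromosomes to it through the kinetochores, condensin and topoisomerase compact the chromosomes, and the spindle checkpoint holds back the anaphase-promoting complex until every chromosome is attached. In the colon these genes are active in the dividing cells of the crypts, where the epithelium renews itself.

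Of the 38 tested genes, 19 were higher in proximal colon, and none (0) was higher in distal colon (limma adjusted p; with an unadjusted p below 0.05 the counts were 21 and 0). Over all genes tested, 14.5% were called higher in proximal and 16.2% higher in distal colon, and 30.8% in either direction. The median difference was 0.35 over the 38 genes and -0.01 over all genes. The proximal mean was above the distal mean in 35 of 38, against 47.8% of all genes. A difference of at least 1.5-fold with a call was found for 12 of 38, against 5.22% of all genes, and folds of the called genes ran from 1.26 to 1.88. In 15 of 38 genes every one of the 9 rats had the higher signal in its own proximal colon, against 10.2% of all genes. With rat as a block (each rat compared with itself), 22 and 0 were called, against a background of 17.4% higher in proximal and 19.5% in distal colon. With the deposited scaling of the arrays kept, 20 and 0 were called, against 13.6% and 3.95% of all genes. That scaling moved the median of all genes to 0.10 and the members' median to 0.48. The genes were chosen with earlier results of these data known, so these counts beside all genes are a description.

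**Figure D1:**
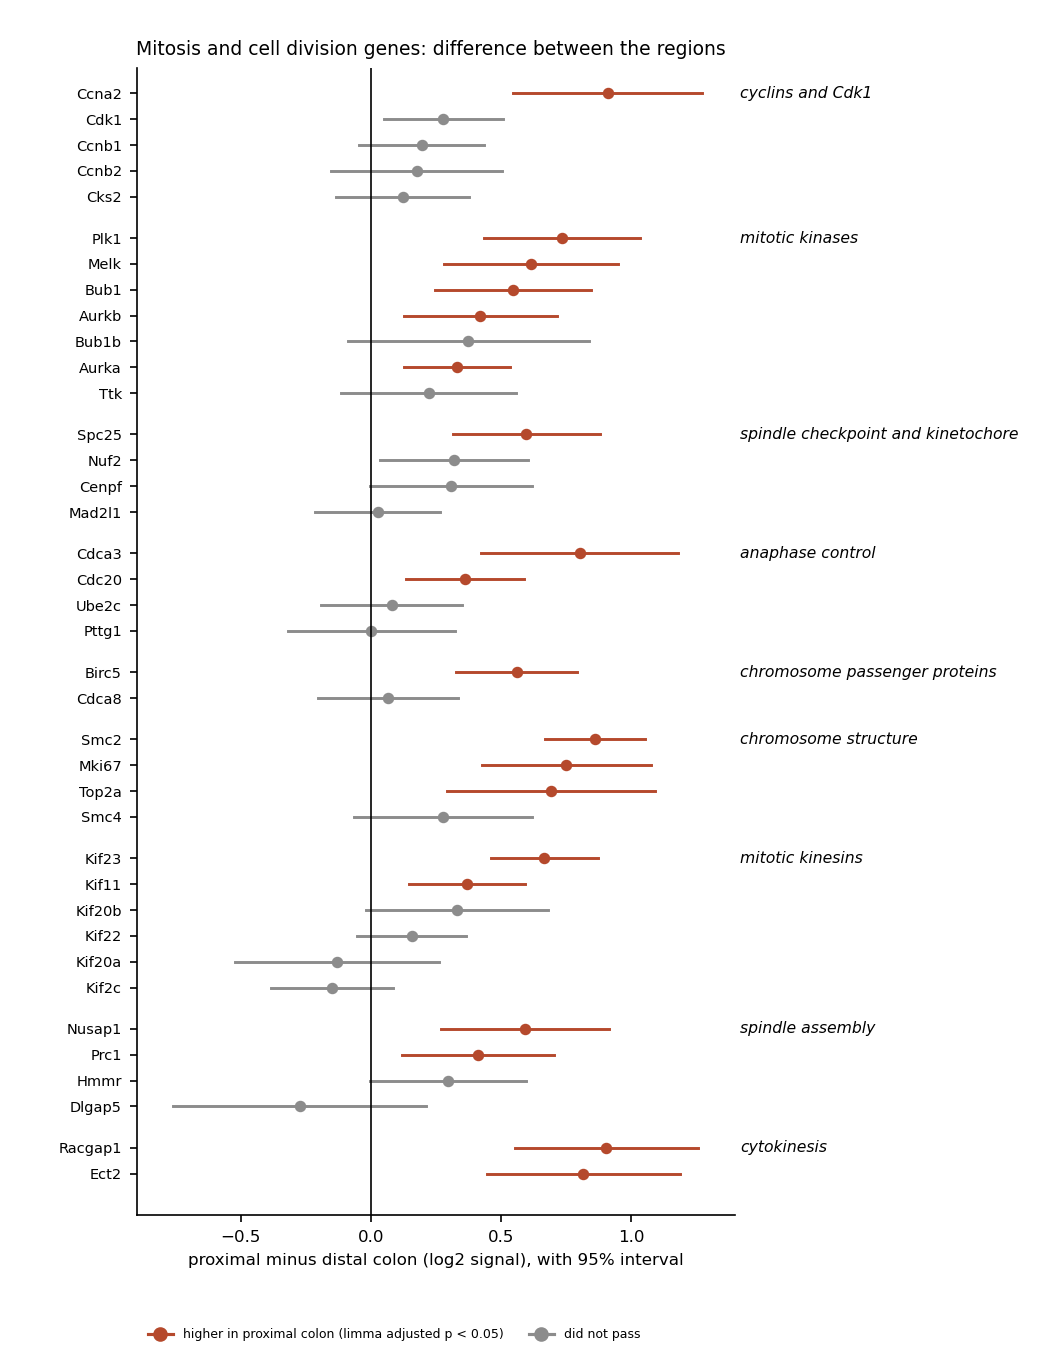
Difference between proximal and distal colon (log2 signal, horizontal axis) of the 38 tested genes, grouped by role, with points for limma's estimate and lines for its 95% interval. The 19 genes called higher in proximal colon are in red and lie right of 0; Dlgap5, Kif2c and Kif20a, in grey, have estimates left of 0.

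The DNA just before the transcription start is shown for 6 called genes because mitotic genes are known to share 2 short elements there. One is the cell cycle homology region, searched here as TTTGAA or TTCGAA, to which the DREAM and FOXM1-MuvB complexes bind, and the other is the CCAAT box, bound by NF-Y. Both strands were searched from 250 bases before to 50 bases after each start in RefSeq promoters of rat assembly GRCr8, where 42 of the 47 genes matched, with 43 starts. TTTGAA or TTCGAA stood in 72.1% of the 43 windows, against 19.7% of all 33469 windows of that length, and CCAAT in 76.7% against 37.5%. Both stood together in 60.5% of the genes' windows and in 7.95% of all windows. The E2F letters TTTGGCGC or TTTCGCGC, typical of DNA replication genes, stood in only 1 of the 43 windows, that of Cdk1 (2.33% against 0.792%). The 6 printed are called genes with the first element wholly within the 250 bases before the start, which are shown 5′ to 3′. Of such genes with a RefSeq promoter found, they have the largest differences. Ccna2, Racgap1 and Aurkb, also called, had no promoter found and were not searched. Plk1, whose only match begins 7 bases after the start, is not printed. Capitals mark the 2 elements on either strand, with TTCAAA as the other reading of TTTGAA and ATTGG as that of the CCAAT box.
Smc2 (chr5:71602155-71602404, plus strand): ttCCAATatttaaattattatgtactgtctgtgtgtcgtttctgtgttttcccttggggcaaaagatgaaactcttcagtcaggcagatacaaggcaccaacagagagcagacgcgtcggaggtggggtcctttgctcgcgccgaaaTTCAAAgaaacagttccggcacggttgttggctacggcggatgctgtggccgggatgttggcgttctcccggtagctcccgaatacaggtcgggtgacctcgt
Ect2 (chr2:111966627-111966876, minus strand): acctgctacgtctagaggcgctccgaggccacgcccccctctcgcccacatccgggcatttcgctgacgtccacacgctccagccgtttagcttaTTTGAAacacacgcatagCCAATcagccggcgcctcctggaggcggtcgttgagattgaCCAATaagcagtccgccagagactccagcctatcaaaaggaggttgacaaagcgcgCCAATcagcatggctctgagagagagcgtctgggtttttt
Mki67 (chr1:199952594-199952843, minus strand): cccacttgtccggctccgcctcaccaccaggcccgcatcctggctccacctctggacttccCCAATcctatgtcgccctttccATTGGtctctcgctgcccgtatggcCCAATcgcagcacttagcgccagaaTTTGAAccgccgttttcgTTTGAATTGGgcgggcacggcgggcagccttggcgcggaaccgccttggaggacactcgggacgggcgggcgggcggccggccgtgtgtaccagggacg
Top2a (chr10:84473094-84473343, minus strand): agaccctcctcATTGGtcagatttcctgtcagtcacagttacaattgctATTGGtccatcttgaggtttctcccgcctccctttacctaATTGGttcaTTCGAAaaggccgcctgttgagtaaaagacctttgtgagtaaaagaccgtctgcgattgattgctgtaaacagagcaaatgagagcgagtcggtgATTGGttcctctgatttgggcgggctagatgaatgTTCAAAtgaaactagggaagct
Kif23 (chr8:71320585-71320834, minus strand): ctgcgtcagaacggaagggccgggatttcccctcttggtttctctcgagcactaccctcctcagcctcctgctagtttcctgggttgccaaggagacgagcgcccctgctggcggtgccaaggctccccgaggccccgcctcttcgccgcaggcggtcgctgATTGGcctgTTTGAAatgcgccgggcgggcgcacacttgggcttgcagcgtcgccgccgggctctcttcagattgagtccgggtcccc
Spc25 (chr3:74396719-74396968, minus strand): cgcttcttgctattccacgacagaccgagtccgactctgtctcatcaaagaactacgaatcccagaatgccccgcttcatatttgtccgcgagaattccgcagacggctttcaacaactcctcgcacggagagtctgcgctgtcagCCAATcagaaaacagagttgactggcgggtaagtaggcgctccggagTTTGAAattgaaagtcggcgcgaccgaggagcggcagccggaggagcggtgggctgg
Smc2 carries TTCAAA 103 bases before its start and a single CCAAT near the far end of the window. Kif23 has ATTGG 88 bases and TTTGAA 79 bases before the start, and Spc25 has CCAAT and TTTGAA in the same order. Ect2 has TTTGAA 155 bases before its start, followed by 3 CCAAT matches, and another TTTGAA that begins 3 bases before the start and runs past the printed stretch. Mki67 has 2 TTTGAA and 4 CCAAT matches, of which the last TTTGAA and ATTGG share bases, and Top2a has 2 and 4. Whether the element goes with a call was not tested, and Ccna2, Racgap1 and Aurkb are missing from the shares. Of the windows of 16 called genes 68.8% held the element and of those of the other tested genes 73.7%. The median difference was 0.33 in the 25 tested genes with it, of which 11 were called, and 0.33 in the 9 without it, of which 5 were called. A match of letters is a description of the window and not evidence of binding.

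Among the cyclins and the subunits of Cdk1, 1 of 5 was called, and the median difference was 0.20. Ccna2, the cyclin of DNA synthesis and of entry into mitosis, had log2 signals from 7.61 to 8.65 in proximal colon (median 8.08) and from 6.34 to 7.66 in distal colon (median 7.32). Only 1 distal array, that of rat 1, was above the lowest proximal array, that of rat 10. The difference of 0.91 ± 0.17 (SE, n = 9 each), or 1.88-fold, was the highest of the 38 (adjusted p = 0.000589, higher in 9 of 9 rats). The B cyclins, which drive mitosis itself, had smaller estimates. Ccnb1 ran from 7.41 to 8.09 in proximal colon (median 7.83) and from 7.19 to 7.95 in distal colon (median 7.57), so the groups overlapped over most of their range. Its difference of 0.20 ± 0.11 did not pass (95% interval -0.04 to 0.43, adjusted p = 0.225). Ccnb2 differed by 0.18 ± 0.16 (interval -0.15 to 0.50, adjusted p = 0.447). Cks2, a small subunit of the cyclin-Cdk complex, had a median of 9.27 in both regions and differed by 0.12 ± 0.12 (adjusted p = 0.501). Cdk1, the kinase itself, ran from 7.57 to 8.25 in proximal colon (median 7.99) and from 7.37 to 8.00 in distal colon (median 7.67). It was higher in proximal colon in 8 of 9 rats, by 0.28 ± 0.11, and did not pass (adjusted p = 0.0666), but passed with rat as a block (adjusted p = 0.0222). Whether Ccna2 and the B cyclins differ in their regional difference was not tested.

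Of the mitotic kinases, 5 of 7 were higher in proximal colon, with a median difference of 0.42. Plk1, the Polo kinase that acts from entry to exit of mitosis, ran from 7.28 to 7.92 in proximal colon (median 7.59) and from 6.06 to 7.47 in distal colon (median 6.92). Distal rat 4 alone was above the lowest proximal array, and the difference was 0.73 ± 0.14 or 1.66-fold (adjusted p = 0.000774, 9 of 9 rats). Melk, a kinase of dividing and progenitor cells, had signals of 6.82 to 7.76 in proximal colon (median 7.47) against 6.29 to 7.33 in distal colon (median 6.77). All distal arrays were below the proximal median, and Melk was 1.53-fold higher (0.62 ± 0.16, adjusted p = 0.00725, 9 of 9 rats). Bub1, the checkpoint kinase of the kinetochore, ran from 6.51 to 7.17 in proximal colon (median 6.82) and from 5.53 to 6.80 in distal colon (median 6.31). It was 1.46-fold higher (0.55 ± 0.14, adjusted p = 0.00772), with rat differences from 0.02 in rat 4 to 1.15 in rat 8.

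Aurka, the Aurora kinase of the spindle poles, ran from 6.91 to 7.57 in proximal colon (median 7.22) and from 6.63 to 7.21 in distal colon (median 6.88), a 1.26-fold difference (0.33 ± 0.10, adjusted p = 0.015, 8 of 9 rats). Aurkb, the Aurora kinase of the chromosome passenger complex, ran from 7.25 to 8.09 in proximal colon (median 7.61) and from 6.66 to 7.70 in distal colon (median 7.33). Its groups overlapped, with 5 distal arrays above the lowest proximal one, and its 1.34-fold difference (0.42 ± 0.14, adjusted p = 0.0325, 7 of 9 rats) lost the call when rat 1, 5, 6, 7 or 8 was left out (adjusted p = 0.0656, 0.0615, 0.0637, 0.106 and 0.0717) and when proximal rats 3 and 6 were left out (adjusted p = 0.058). Ttk, the kinase that starts the checkpoint, differed by 0.22 ± 0.16 (adjusted p = 0.338). Bub1b, which blocks the anaphase-promoting complex, was dim, ran from 4.82 to 6.39 in proximal colon (median 5.72) and from 4.65 to 6.00 in distal colon (median 5.58), and did not pass (0.38 ± 0.22, adjusted p = 0.227). Its distal mean of 5.45 was below the filter level and its proximal mean of 5.82 above it.

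At the kinetochore, 1 of 4 genes was called, and the median difference was 0.31. Spc25, a subunit of the NDC80 complex that holds microtubules, ran from 7.41 to 8.12 in proximal colon (median 7.74) and from 6.70 to 7.63 in distal colon (median 7.26). It was higher in all 9 rats, by 0.60 ± 0.14 or 1.51-fold (adjusted p = 0.00257). Nuf2, another subunit of that complex, ran from 7.12 to 8.05 in proximal colon (median 7.72) and from 6.83 to 7.82 in distal colon (median 7.44). It differed by 0.32 ± 0.14 and did not pass (adjusted p = 0.0902), but passed with rat as a block (adjusted p = 0.0304), with the deposited scaling (adjusted p = 0.0485) and without rat 10 (adjusted p = 0.0419). Cenpf, a large protein of the outer kinetochore, differed by 0.31 ± 0.15 (adjusted p = 0.138). Mad2l1, the checkpoint protein that captures Cdc20, had nearly the same range in both regions, 6.76 to 7.53 in proximal colon (median 7.22) and 6.80 to 7.53 in distal colon (median 7.20). Its difference was 0.03 ± 0.11 (95% interval -0.21 to 0.27, adjusted p = 0.892).

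Genes grouped here under anaphase control were divided, with 2 of 4 called and a median of 0.22. Cdca3 acts on Wee1, a kinase of mitotic entry, and apart from Cdca3 only Cdc20 was called. Cdca3, an adaptor for the destruction of the Wee1 kinase, ran from 7.78 to 9.05 in proximal colon (median 8.25) and from 7.01 to 8.17 in distal colon (median 7.61). No distal array reached the proximal median, and Cdca3 was 1.74-fold higher (0.80 ± 0.18, adjusted p = 0.00253, 9 of 9 rats). Cdc20, the activator of the anaphase-promoting complex, ran from 6.87 to 7.47 in proximal colon (median 6.99) and from 6.50 to 7.05 in distal colon (median 6.65). Its difference was 0.36 ± 0.11, or 1.28-fold (adjusted p = 0.0173, 8 of 9 rats), and did not pass without rat 7 (adjusted p = 0.0551). Ube2c, the ubiquitin-conjugating enzyme of that complex, differed by 0.08 ± 0.13 (interval -0.19 to 0.35, adjusted p = 0.693). Pttg1, the securin that restrains separase, ran from 7.24 to 8.32 in proximal colon (median 7.76) and from 7.28 to 8.22 in distal colon (median 7.63). Its means were 7.72 in both regions, and the interval of the difference was -0.32 to 0.32 (adjusted p = 0.996). The interval leaves room for a difference of about the size of that of Aurka in either direction.

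Of the other chromosome passenger proteins, Birc5 was called and Cdca8 was not. Birc5 (survivin) ran from 6.80 to 7.53 in proximal colon (median 7.22) and from 6.37 to 6.93 in distal colon (median 6.59). Only 2 distal arrays were above the lowest proximal array, and the difference was 0.56 ± 0.11, or 1.48-fold (adjusted p = 0.000883, 8 of 9 rats). Cdca8 (borealin), of the same complex, ran from 6.41 to 7.24 in proximal colon (median 6.92) and from 6.51 to 7.17 in distal colon (median 6.81), which overlap throughout. It differed by 0.07 ± 0.13 (interval -0.20 to 0.34, adjusted p = 0.743).

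Chromosome structure genes were higher in proximal colon in 3 of 4 cases, with a median of 0.72. Smc2, a core subunit of both condensins, ran from 7.66 to 8.13 in proximal colon (median 8.02) and from 6.71 to 7.27 in distal colon (median 7.15). It was the 1 gene of the 38 whose groups did not overlap, against 3.67% of all genes with all proximal arrays above all distal arrays (3.22% had all below). Its difference was 0.86 ± 0.09, or 1.82-fold (adjusted p = 8.06e-07). Mki67, which coats mitotic chromosomes and is the usual marker of cycling cells (Ki-67), ran from 8.68 to 9.80 in proximal colon (median 9.11) and from 7.90 to 8.89 in distal colon (median 8.47). All 9 rats had more of it in proximal colon, by 0.34 in rat 10 to 1.20 in rat 7, and the difference was 0.75 ± 0.16 or 1.68-fold (adjusted p = 0.00121).

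Top2a, the topoisomerase that untangles sister chromosomes, ran from 8.10 to 9.10 in proximal colon (median 8.53) and from 6.93 to 8.72 in distal colon (median 8.01). Distal rat 6 alone exceeded the proximal median, and Top2a was 1.62-fold higher (0.69 ± 0.19, adjusted p = 0.0108, 9 of 9 rats). Smc4, the partner of Smc2 in condensin, ran from 6.42 to 7.33 in proximal colon (median 7.07) and from 6.22 to 7.58 in distal colon (median 6.73). It did not pass (0.28 ± 0.16, adjusted p = 0.228), and the highest of all 18 arrays was distal rat 10.

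**Figure D2:**
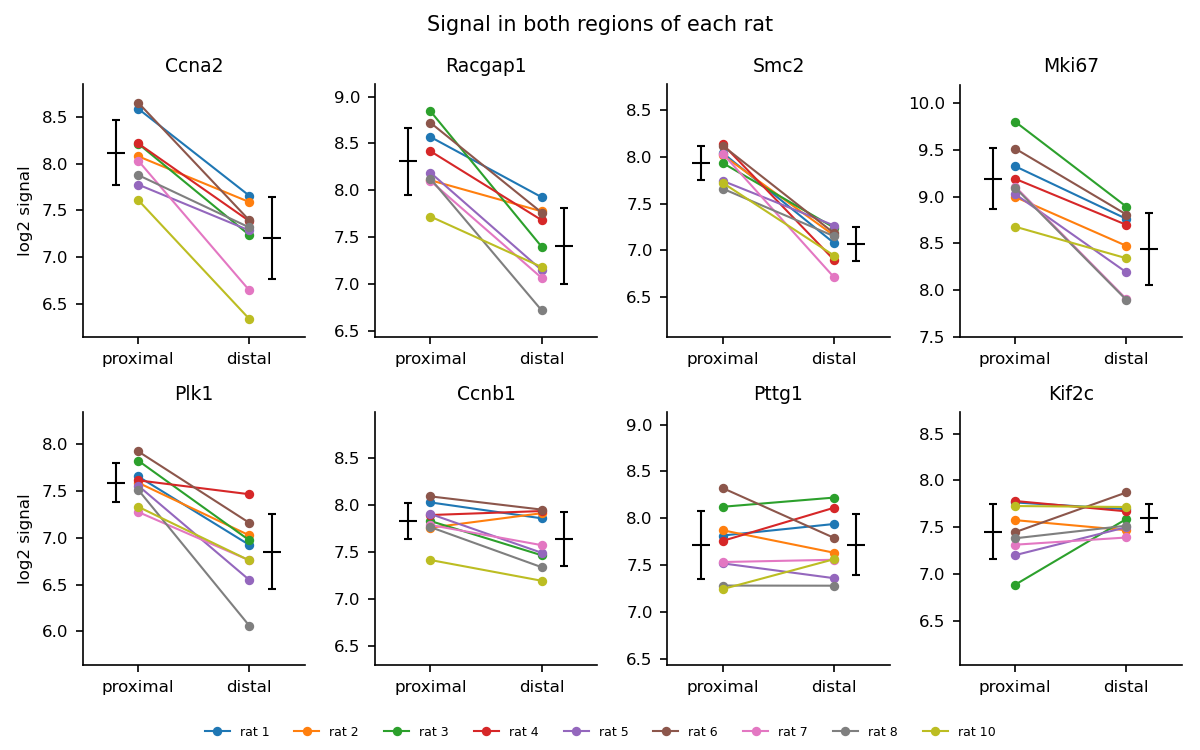
Log2 signal (vertical axis) of 8 of the genes in proximal (left) and distal (right) colon, with a line for each of the 9 rats and black marks for the mean and SD of each region. All 9 lines fall to the right for Ccna2, Racgap1, Smc2, Mki67 and Plk1, while those of Ccnb1, Pttg1 and Kif2c run in both directions.

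Of the mitotic kinesins, the motors that move along microtubules, 2 of 6 were higher in proximal colon, and the median difference was 0.24. Kif23, which bundles the central spindle, ran from 8.26 to 9.03 in proximal colon (median 8.60) and from 7.74 to 8.27 in distal colon (median 8.03). Only 1 distal array was above the lowest proximal one, and the 1.59-fold difference (0.67 ± 0.10, adjusted p = 4.42e-05) lay between 0.52 and 0.91 in every rat. Kif11, which pushes the spindle poles apart, ran from 7.10 to 7.90 in proximal colon (median 7.59) and from 6.90 to 7.39 in distal colon (median 7.15), a 1.29-fold difference (0.37 ± 0.11, adjusted p = 0.0136). Kif20b, which acts in late division, differed by 0.33 ± 0.17 (adjusted p = 0.155) and passed with rat as a block (adjusted p = 0.0478). Kif22, which moves chromosome arms, was higher in proximal colon in 9 of 9 rats by a small amount (0.16 ± 0.10, adjusted p = 0.273).

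The other kinesins had estimates below 0. Kif20a, which acts at the midzone, differed by -0.13 ± 0.19 (adjusted p = 0.656). Kif2c, which takes microtubule ends apart at the kinetochore, ran from 6.89 to 7.78 in proximal colon (median 7.45) and from 7.39 to 7.87 in distal colon (median 7.59). It differed by -0.15 ± 0.11 (interval -0.38 to 0.08, adjusted p = 0.357), and 8 of 9 distal arrays were above the proximal median.

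Among the spindle assembly genes, 2 of 4 were called, with a median of 0.36. Nusap1, which binds and bundles spindle microtubules, ran from 7.86 to 8.77 in proximal colon (median 8.28) and from 7.07 to 8.18 in distal colon (median 7.81). No distal array reached the proximal median, and it was 1.51-fold higher (0.59 ± 0.15, adjusted p = 0.00724, 9 of 9 rats). Prc1, the crosslinker of the central spindle, ran from 7.82 to 8.48 in proximal colon (median 8.21) and from 7.04 to 8.28 in distal colon (median 7.89). Its 1.33-fold difference (0.41 ± 0.14, adjusted p = 0.034, 7 of 9 rats) lost the call without rat 5, 6, 7 or 8 (adjusted p = 0.0925, 0.0726, 0.061 and 0.0793) and when proximal rats 3 and 6 were left out (adjusted p = 0.102). Hmmr, a spindle pole protein and hyaluronan receptor, differed by 0.30 ± 0.14 (adjusted p = 0.139). Dlgap5, which stabilises kinetochore microtubules, ran from 6.74 to 7.47 in proximal colon (median 7.36) and from 5.86 to 8.41 in distal colon (median 7.71). It was higher in distal colon in 8 of 9 rats, and rat 10, its lowest distal array, went the other way by 0.88, so that the mean difference was -0.27 ± 0.23 (interval -0.76 to 0.21, adjusted p = 0.426).

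Both cytokinesis genes were higher in proximal colon, with a median of 0.86. Racgap1, part of the centralspindlin complex with Kif23, ran from 7.72 to 8.84 in proximal colon (median 8.19) and from 6.72 to 7.92 in distal colon (median 7.39). It was 1.87-fold higher (0.91 ± 0.17, adjusted p = 0.000477, 9 of 9 rats). Ect2, the exchange factor that Racgap1 recruits to activate RhoA at the cleavage furrow, ran from 7.46 to 8.77 in proximal colon (median 8.03) and from 6.73 to 7.82 in distal colon (median 7.48). Ect2 was 1.76-fold higher (0.82 ± 0.18, adjusted p = 0.0019, 9 of 9 rats), and no distal array of either gene reached its proximal median. Kif23, counted above with the kinesins, Racgap1 and Ect2 were each called (14.5% of all genes) and higher in 9 of 9 rats (10.2% of all genes). Of other genes of the midzone and late division, Prc1 was called, and Kif20a (-0.13) and Kif20b (0.33) did not pass.

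For 10 of the genes more than 1 probe set was tested, and these did not always read alike. All were called for Nusap1, Racgap1 and Top2a, and none for Ccnb1, Hmmr and Smc4. Over the 50 probe sets, 23 were called for proximal and 1 for distal colon. The 1 was the dimmer set of Kif2c, which averaged 6.57 ± 0.22 in proximal colon, against 6.98 ± 0.17 in distal colon (SD over 9 arrays each), was higher in distal colon in 8 of 9 rats and differed by -0.40 (adjusted p = 0.00662). Kif2c is thus the gene of the list with a probe set called on the other side, while its brighter set (-0.15) did not pass. The dimmer set of Hmmr had an estimate below 0 (-0.09, adjusted p = 0.682), unlike its brighter set (0.30). The set of Mad2l1 that averaged 6.67 ± 0.17 in proximal and 6.35 ± 0.21 in distal colon was called (0.32, adjusted p = 0.0257), unlike its brightest set. The dimmer tested sets of Cdc20 differed by 0.38 (adjusted p = 0.204) and -0.08 (adjusted p = 0.787), and that of Kif11 by 0.14 (adjusted p = 0.754). The second set of Ccnb1 differed by 0.38 (adjusted p = 0.0619), and passed with rat as a block (adjusted p = 0.0181). A dim second set of Ttk was below the filter and not tested. It was higher in distal colon in 8 of 9 rats (median 5.12 in proximal and 5.76 in distal colon). The untested set of Kif23 was higher in proximal colon in 5 of 9 rats, and those of Cdc20 in 6 and 3.

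Rats differed in how far the genes stood apart. Of the 38, 24 were higher in proximal colon in rat 2, 25 in rat 4 and 29 in rat 10, and 31 to 35 in the other rats. The median difference over the genes was 0.16, 0.20 and 0.21 in rats 2, 4 and 10 and reached 0.54 in rat 3, 0.52 in rat 6 and 0.60 in rat 7, while the median over all genes stayed between -0.05 and 0.02 in every rat. Thus all 9 rats had a positive median, of unequal size.

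Within a region the genes moved together between rats. Among the proximal arrays rat 10 was the lowest for 27 of the 38 genes (13.2% of all genes) and rat 6 the highest for 23 (14.3% of all genes). Rat 3 was the highest for 8 more, Mki67, Racgap1 and Ect2 among them, a count near its share of all genes (20.3%). Among the distal arrays, rats 8, 7 and 10 were the lowest for 14, 11 and 7 of the 38 genes (10.1%, 10.6% and 11.3% of all genes). Distal rats 4, 6 and 1 were the highest for 11, 10 and 9 (10.3%, 12.7% and 8.99% of all genes). Across pairs of the 38 genes, the median Pearson r was 0.68 over the 9 proximal and 0.52 over the 9 distal arrays, against 0.005 and 0 over pairs of all genes. These correlations are a description, since the genes share each array and its normalization.

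**Figure D3:**
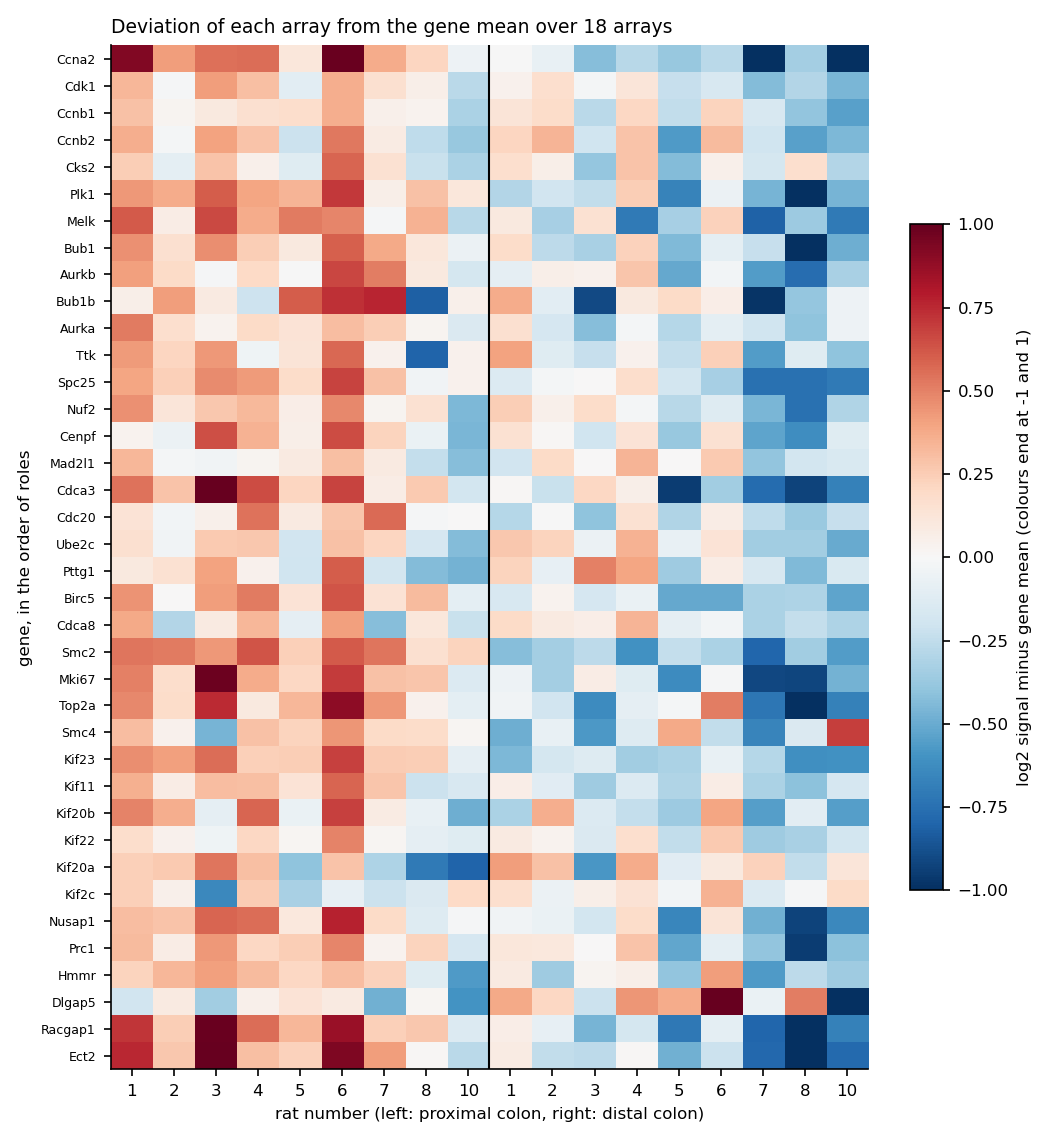
Deviation of each array from the gene's own mean over 18 arrays (colour, log2 signal) for the 38 genes (rows, in order of role) in 9 proximal (left) and 9 distal (right) arrays. Proximal rat 6 is red for nearly all genes, proximal rat 10 is pale or blue, and distal rats 7, 8 and 10 are the bluest. Smc4 in distal rat 10 and Dlgap5 in distal rat 8 go against their columns.

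Other genes of the division cycle were read from lists of non-members, also chosen with earlier results of these data known. Of 27 other centromere and kinetochore genes, 8 were called for proximal and 1 for distal colon (median 0.26). Spdl1, which brings dynein to the kinetochore, was 2.09-fold higher (1.06 ± 0.12, adjusted p = 1.44e-06), Clasp1 differed by 0.66, and Spc24, which pairs with Spc25, by 0.58. Of 17 cohesin and condensin genes, 7 were called for proximal and 1 for distal colon (median 0.25). Espl1, the separase that Pttg1 restrains, averaged 8.60 ± 0.27 in proximal colon, against 7.29 ± 0.28 in distal colon (SD over 9 arrays each). It was 2.47-fold higher (adjusted p = 2.15e-07, 9 of 9 rats), a larger estimate than that of any of the 38. Esco2, which acetylates cohesin, differed by 0.65 and Ncaph, of condensin I, by 0.50.

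Of 22 other mitotic kinesins and spindle genes, 8 were called for proximal and 0 for distal colon (median 0.32), led by Kifc1 (0.59), Cit (0.53) and Arhgap11a (0.52). That count was 4 when proximal rats 3 and 6 were left out, and 5 without the 3 arrays of highest smooth muscle score (proximal rat 3, distal rats 3 and 7). Of 13 genes of mitotic entry control, 2 were called for proximal and 1 for distal colon (median -0.01). Ccnf differed by 0.54 and Cks1b by 0.30, while Ensa differed by -0.26 and was not called with the deposited scaling (adjusted p = 0.314). These counts were 2 and 3 when proximal rats 3 and 6 were left out, and 1 and 3 without the 3 smooth muscle arrays. Wee1, the kinase that restrains Cdk1, differed by -0.19 ± 0.11 (adjusted p = 0.219).

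The genes of the anaphase-promoting complex, its subunits with some regulators and ubiquitin-conjugating enzymes, had no call for proximal colon. Of these 17 genes, 0 were called for proximal and 5 for distal colon (median -0.10), with Anapc5 at -0.39, Anapc4 at -0.30 and Anapc10 at -0.27. With the deposited scaling none of the 17 was called in either direction (median 0.02, adjusted p = 0.0511 for Anapc5), so the direction of this group rests on the scaling. Of 17 mitotic transcription factors and their partners, 6 were called for proximal and 0 for distal colon (median 0.21), and 3 without the proximal arrays of rats 3 and 6. E2f2 differed by 0.56, E2f8 by 0.43 and E2f7 by 0.41. Foxm1, the activator of late mitotic genes, was 1.22-fold higher (0.29 ± 0.10, adjusted p = 0.0458), and Mybl2, another partner of the MuvB complex, did not pass (0.21 ± 0.11, adjusted p = 0.189).

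Of 36 DNA replication genes, 13 were called for proximal and 1 for distal colon (median 0.24). Uhrf1 differed by 0.80, Pola1 by 0.63 and Orc1 by 0.54, and Pcna, the clamp of the polymerase, by 0.12 (adjusted p = 0.315). The single distal calls of the replication, cohesin and centromere lists were Rfc1 (-0.42), Nipbl (-0.32) and Cenpb (-0.22), named after their values were seen, and none was called with the deposited scaling (adjusted p = 0.0753, 0.17 and 0.533). Of 16 genes of the G1 phase, 5 were called for proximal and 1 for distal colon (median 0.21), and 8 and 2 with rat as a block. Rb1 differed by 0.76 and Ccne2 by 0.52. Ccnd2, a G1 cyclin, went the other way, at 3.64-fold higher in distal colon (-1.86 ± 0.15, adjusted p = 2.92e-08).

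**Figure D4:**
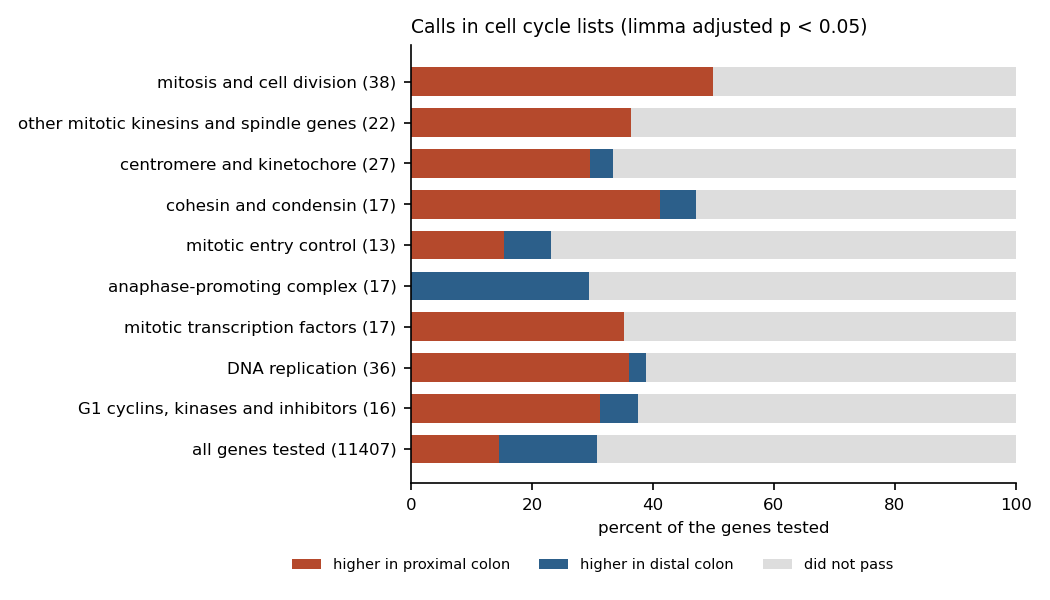
Percent of the genes tested (horizontal axis) that were called higher in proximal colon (red), higher in distal colon (blue) or did not pass (grey), for the 38 mitosis and cell division genes, 8 lists of other cell cycle genes and all 11407 genes. The share higher in proximal colon is 50% for the 38 genes and 14.5% for all genes, and the anaphase-promoting complex has calls in distal colon only, which the deposited scaling does not give.

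The factor p53 answers DNA damage and, through Cdkn1a, lowers mitotic genes. Its targets had 1 of 12 called for proximal and 7 for distal colon (median -0.38), and 1 and 0 with the deposited scaling. Gdf15 differed by -0.84, Aen by -0.68 and Phlda3 by -0.62. Cdkn1a, the Cdk inhibitor, did not pass (-0.55 ± 0.20, adjusted p = 0.0539), but passed with rat as a block (adjusted p = 0.0382). The score of the list, which is the mean deviation of its genes from their own means, was -0.82 and -0.69 in proximal rats 3 and 6 and between -0.21 and 0.14 in the other proximal arrays. Proximal rat 6 was the highest proximal array for 23 of the 38 genes (14.3% of all genes). Proximal rat 3 was the highest for 8, near its share of all genes (20.3%), and had the highest smooth muscle score (4.06). Without both arrays 17 and 0 of the 38 genes were called, against 1653 for proximal and 1711 for distal colon over all genes. The part of the damage response in the regional difference was not tested.

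The tissue and its other cells were read from marker lists. The 11 epithelial genes (Epcam, Cdh1 and keratins among them) had a mean log2 signal of 11.99 to 12.46 over the proximal and 12.08 to 12.31 over the distal arrays, and 3 of them were called for proximal and 0 for distal colon. Absorptive colonocyte genes had 11 of 15 called for proximal and 3 for distal colon, with scores from 0.09 to 0.82 in proximal and from -1.15 to -0.26 in distal colon, which do not overlap. Enteroendocrine genes had 6 of 8 called for proximal and 0 for distal colon (scores 0.19 to 1.06 in proximal and -1.10 to -0.13 in distal colon), and goblet cell genes had 3 and 1 of 8 (0.09 to 0.53 in proximal and -0.60 to -0.07 in distal colon). Crypt base genes had 4 and 3 of 10 (scores -0.14 to 0.53 in proximal and -0.31 to 0.14 in distal colon). Cd44 differed by 1.70, Prom1 by 0.96 and Lgr5, the marker of crypt stem cells, by -0.90 (1.86-fold higher in distal colon, adjusted p = 0.000138). The median difference was 0.49 over the absorptive, 1.64 over the enteroendocrine and 0.04 over the goblet cell genes. In the goblet list Spink4 (2.83) and Zg16 (1.87) stood far above the rest, and Tff3 was the gene called for distal colon (-0.41). The part of these lists in the difference of the 38 genes was not tested.

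Dividing lymphocytes can carry the same transcripts. Of 10 B cell and germinal centre genes 1 was called for proximal and 0 for distal colon, with scores from -1.14 to 0.95 in proximal and from -0.64 to 0.85 in distal colon. T and NK cell genes had 1 and 0 of 10 (-0.74 to 1.22 in proximal and -0.69 to 0.93 in distal colon), plasma cell genes 2 and 0 of 6 (-0.20 to 0.37 in proximal and -0.42 to 0.28 in distal colon), and myeloid genes 0 and 1 of 6 (-0.83 to 0.83 in proximal and -0.79 to 0.43 in distal colon). No value in the table was at 0. Smooth muscle genes had 0 and 0 of 11, with scores from -1.15 to 4.06 in proximal and from -1.37 to 1.80 in distal colon. Fibroblast genes had 0 and 0 of 8 (-1.86 to 3.16 in proximal and -1.57 to 2.38 in distal colon). The median difference was 0.41 over the smooth muscle and 0.70 over the fibroblast genes, between arrays that varied widely. For the B cell, T and NK cell, plasma cell and myeloid genes it was -0.37, -0.08, 0.10 and -0.0018. Proximal rat 3 and distal rats 3 and 7 were the arrays of highest smooth muscle score. Without them 16 and 0 of the 38 genes were called, and 5 and 0 of the fibroblast genes. Over all genes, 1753 were then called for proximal and 1734 for distal colon. Of the 38, Prc1, Kif11 and Top2a were the calls lost (adjusted p = 0.0782, 0.0611 and 0.0607).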

How the data were processed

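RNA of 18 mucosal scrapings was hybridised to Affymetrix rat arrays. The deposited values are linear signal intensities of 31099 probe sets from MAS5, which the authors ran per the submitters' processing notes. Its version and scaling target: not given in the sources used here. Trimmed means of the intensities (2% at each end) ran from 210.3 to 341.2, so log2(intensity + 16) of the 31042 non-control probe sets was quantile normalized, which removes any overall shift between regions. The pseudocount understates folds of dim genes. The dimmest 30% were left out, and 21729 probe sets were tested.

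Groups came from the labels. limma (3.58.1, R 4.3.3; lmFit, eBayes with an intensity trend) tested proximal minus distal colon without a block, two-sided, with Benjamini-Hochberg adjustment over all tested probe sets. Scripts were tested on simulated data. Where several probe sets read 1 gene, the brightest stood for it. Symbols came from the array annotation (20826 probe sets with 1 symbol, 436 with several, 9780 unnamed). Of the 20826, 20758 are in a RefSeq table of GRCr8, and 0 were changed. Promoters are RefSeq's, of GRCr8, and were not found for Aurkb, Racgap1, Ccna2, Ube2c and Tpx2. The number of arrays limits precision. Figures and other values used Python 3.11.15, numpy 2.4.6, pandas 2.3.3 and matplotlib 3.10.9.

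Same-numbered arrays come from the same animal per the labels. Deviations of the 2 arrays of a rat correlated at -0.07 to 0.60 (median 0.24, above 0.1 in 6 of 9 rats), and those of different rats at a median of -0.02. No 2 arrays shared more than 0.00644% of their values. All members are named; from each other list, at most the 3 called genes of largest difference are named, plus Pcna, Ccnd2, Cdkn1a, Foxm1, Mybl2, Wee1 and Lgr5. Members and lists were chosen with earlier results of these data known. The replicate block, scaling, pseudocount, filter, probe set rule, trend and rats left out were tried as alternatives.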

Additional observations from a re-analysis of the deposited data

Results flagged for a closer look

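In 5 of 76 groups of 9 arrays (6.58%, against 10.4% over all genes tested) 1 array stood apart from the other 8 by a gap past Dixon's critical value for 9 values, as a share of the group's range. Chance alone flags about 1 group in 20. Ccnb1 in proximal colon was 7.41 in rat 10 and 7.76 to 8.09 in the others, and Nuf2 in proximal colon was 7.12 in rat 10 and 7.59 to 8.05 in the others. Rat 10 is also the rat with the lowest proximal array for 27 of the 38 genes. Ttk in proximal colon was 5.98 in rat 8 (6.73 to 7.35 in the others), and Smc4 in proximal colon was 6.42 in rat 3 (6.90 to 7.33 in the others). Dlgap5 in distal colon was 5.86 in rat 10 and 7.12 to 8.41 in the others. None of these 5 genes was called with all rats, and without rat 10 Nuf2 was called (adjusted p = 0.0419).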

How the results depend on the processing

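Over 22 alternatives, 16 to 22 of the 38 genes were higher in proximal colon (16 to 20 on leaving out 1 rat in turn). In distal colon none was (0 to 0 on leaving out 1 rat), except that 1 gene, Kif2c, was higher in distal colon with the mean of its probe sets (1 gene, adjusted p = 0.045) and 1 with the probe set of largest variance (adjusted p = 0.00662). Over all genes, the alternatives called from 1226 (arrays centred on their medians) to 1980 (rat as a block) for proximal colon. For distal colon they called from 451 (deposited scaling) to 2219 (rat as a block). Of the 19 called genes, 14 were never tested without being called and 0 reversed. Only 33 of the 38 were tested when the dimmest 50% were left out, where Bub1 was not among them. Besides the losses of Aurkb, Prc1, Cdc20, Kif11 and Top2a given above, Cdc20 and Kif11 lost the call with the mean of the probe sets (adjusted p = 0.26 and 0.311) and the set of largest variance (0.204 and 0.754), and Prc1 with arrays centred on their medians (0.0645). Cdk1 passed without rat 2 (adjusted p = 0.0422), and Hmmr with rat as a block and the deposited scaling (0.0352). The replicate block called 22 genes for proximal and 0 for distal colon (22 and 0 with the deposited scaling too), adding Cdk1, Nuf2 and Kif20b, and changed no other call of the 38. Among genes that were not called, estimates near 0 changed sign. Mad2l1 lay between -0.036 (without rat 1) and 0.069 on leaving out 1 rat, with -0.030 without rat 7, and was at -0.0071 when proximal rats 3 and 6 were left out and -0.019 without the 3 arrays of highest smooth muscle score (an alternative chosen after seeing the data). Pttg1 was at -0.038 with arrays centred on their medians, between -0.065 (without rat 6) and 0.046 on leaving out 1 rat, -0.028 and -0.018 without rats 2 and 5, -0.14 when proximal rats 3 and 6 were left out and -0.00012 without the smooth muscle arrays. Kif20a was at 0.0075 with the deposited scaling, with and without rat as a block. The cause of these changes was not tested. With the deposited scaling, 77.5% of all calls were higher in proximal colon, against 47.2% with quantile normalization. Bub1b, Cenpa and Cenpe were dim, which limits what can be said of them.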
